A study of Mus musculus with 6 samples.

Results

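The 10 genes described here encode enzymes that break down the branched-chain amino acids leucine, isoleucine and valine: Bcat2, Bckdha, Bckdhb, Dbt, Ivd, Mccc1, Mccc2, Acadsb, Pcca and Hibch. They were chosen by symbol from the 21829 genes of the deposited table, all 10 were found, and all 10 passed the filter on low values that left 12539 genes for testing. The tissue sequenced was epididymal white fat, a visceral depot attached to the testis and epididymis, from 20-week-old C57BL/6J males fed a normal diet. Of the 6 libraries, 3 were labelled ZFP251 KO, a knockout of a zinc finger protein, and 3 were labelled wild type (WT), from littermates. The design asks what ZFP251 does in this fat depot. The labels give neither the knockout allele nor its cell type, and they do not say whether each library came from a separate mouse, so the p-values describe only how these libraries vary, and part of that variation may be technical.

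Breakdown of the branched-chain amino acids begins in mitochondria, where the transaminase encoded by Bcat2 removes the amino group reversibly. The branched-chain keto acid dehydrogenase complex (BCKDH) then commits the carbon skeletons to oxidation, and it is switched off by a kinase and on by a phosphatase. Leucine carbon ends as acetyl-CoA and a ketone body, valine carbon as propionyl-CoA, and isoleucine carbon as both. White fat cells carry the whole route and draw on it for lipogenic acetyl-CoA as they mature.

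Promoter sequence from RefSeq (GRCm38.p6, the assembly also called mm10) was matched for 9 of the 10 genes, and Dbt had no entry. In the most upstream window of each gene, the 250 bases before the start were searched on both strands for 5 short motifs. The CCAAT box (CCAAT) was held by 5 of 9, namely Bckdhb, Ivd, Mccc1, Mccc2 and Pcca, against 33.8% of all 32851 windows. A GC box (GGGCGG) was held by 4 of 9, against 32.7% of all windows. The nuclear receptor half-site AGGTCA was held by 2 of 9 (14% of all windows), the E-box CACGTG by 1 of 9 (6.02%) and the ETS motif CCGGAAG by 0 of 9 (6.91%). These matches are descriptions of the letters in the windows, which were not cut at exons for the counts. An annotated exon covers the first base of the windows used for Acadsb, Bcat2 and Bckdhb. One begins after 30 bases in Bckdha and after 141 bases in Hibch. The promoters of the leucine genes Ivd, Mccc1 and Mccc2 and of Pcca are shown because they hold a CCAAT box and lie outside annotated exons, each cut where an annotated exon or the RefSeq gene begins. Each sequence is written 5′ to 3′ in the direction of transcription, with the motif matches in capitals. In Mccc2 a pair of CCAAT matches, one on each strand, overlap in the run ccaattgg.
Ivd, chr2:118861744-118861953, plus strand: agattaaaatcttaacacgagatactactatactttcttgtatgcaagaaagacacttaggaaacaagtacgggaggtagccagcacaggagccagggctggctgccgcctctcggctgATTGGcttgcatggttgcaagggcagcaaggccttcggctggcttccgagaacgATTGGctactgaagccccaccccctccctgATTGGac
Mccc1, chr3:36000712-36000928, minus strand: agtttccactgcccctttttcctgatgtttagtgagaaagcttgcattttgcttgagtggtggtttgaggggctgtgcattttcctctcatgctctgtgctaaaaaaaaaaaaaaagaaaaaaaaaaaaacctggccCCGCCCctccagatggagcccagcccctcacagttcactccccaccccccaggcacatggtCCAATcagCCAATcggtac
Mccc2, chr13:100015640-100015889, minus strand: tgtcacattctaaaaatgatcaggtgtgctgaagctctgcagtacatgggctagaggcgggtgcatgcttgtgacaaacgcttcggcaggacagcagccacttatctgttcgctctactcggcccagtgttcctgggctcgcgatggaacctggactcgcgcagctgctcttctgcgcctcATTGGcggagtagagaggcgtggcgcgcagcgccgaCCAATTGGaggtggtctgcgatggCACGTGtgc
Pcca, chr14:122484115-122484364, plus strand: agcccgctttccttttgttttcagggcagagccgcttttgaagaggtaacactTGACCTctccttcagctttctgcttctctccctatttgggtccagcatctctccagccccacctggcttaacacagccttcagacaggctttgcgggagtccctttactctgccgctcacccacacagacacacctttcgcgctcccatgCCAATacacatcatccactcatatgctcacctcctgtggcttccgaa

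As a check of the labels the targeted gene was read before the others, and its level ran opposite to them. Zfp251 had 6.48, 5.86 and 6.48 FPKM in KO 1 to KO 3, against 3.73, 3.56 and 2.95 FPKM in WT (exact two-sided permutation p = 0.1, the smallest that 3 libraries against 3 allow). FPKM are fragments scaled to transcript length and to the mapped total. Each difference below is thus one between labels, whatever the genotype. Several libraries stood apart. The FPKM of all genes summed to between 426966 and 439354 in the libraries labelled KO, against 472120, 468499 and 637902 in WT 1 to WT 3. Of 25 multiciliated cell genes, 23 passed the filter and all 23 had higher values in the libraries labelled KO. Their summed level was 138.3 to 250.6 FPKM in KO 1 to KO 3, against 104.6 in WT 1, 45.02 in WT 2 and 53.36 in WT 3, and 10 of the 25 genes, Foxj1 among them, were listed at 0 in at least 1 library. WT 3 also held more fast muscle RNA: 14 skeletal muscle genes summed to 41.28 to 50.37 FPKM in KO 1 to KO 3, against 64.12, 56.7 and 194.2 FPKM in WT 1 to WT 3. Of those 14, Ckm, Myh4, Tnnc2 and Pvalb were listed at 0 in at least 1 library.

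All 10 genes had lower mean values in the libraries labelled KO, and none passed the adjusted threshold. The median log2 difference, KO minus WT on log2(FPKM + 1), was -0.52, against -0.05 over all 12539 genes tested, of which 59.2% were lower. In 8 of the 10 genes every library labelled KO lay below every WT library, a pattern found in 12.2% of all tested genes. Those 8 genes also had an unadjusted limma p under 0.05, against 4.43% of all genes called lower in this way. After Benjamini-Hochberg adjustment over all genes limma called 0 of 10, as it called 0 of 12539 (0% of all genes), with 1700 genes at an unadjusted p under 0.05. Adjusted p-values of the 10 genes ran from 0.223 for Bcat2 to 0.515 for Mccc2. When limma gave each library a weight estimated from its own scatter, 7 of the 10 passed, all but Bckdha, Bckdhb and Mccc2, against 3.66% of all genes called lower, with a median log2 difference of -0.37. In that fit 8 of the 10 had an unadjusted limma p under 0.05, against 15.8% of all genes called lower in this way. In this bulk tissue, fewer cells of a type and less RNA per cell cannot be told apart.

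The summed level of the 10 genes was 588.6, 627.8 and 684.6 FPKM in KO 1 to KO 3, against 852.3, 828.1 and 1245 FPKM in WT 1 to WT 3. Divided by the column sum, as a share of all FPKM in the library, it was 0.138%, 0.146% and 0.156% in KO 1 to KO 3, against 0.181%, 0.177% and 0.195% in WT 1 to WT 3. The groups did not overlap on either scale. WT 3 was the highest library for each of the 10 genes, between 0.46 (Acadsb) and 0.91 (Bckdhb) above the gene's mean on the log2 scale. Without WT 3 all 10 genes were still lower, with a median of -0.30 against -0.03 over all genes and a limma unadjusted p under 0.05 in 8 (5.67% of all genes called lower). Without WT 1, the WT library with the most epithelial RNA, the median was -0.60, and 9 of the 10 had a limma unadjusted p under 0.05 (5.26% of all genes called lower). In that fit limma called 482 genes past the adjusted threshold, 13 of them lower (0.104% of all genes tested), and 0 of the 10.

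**Figure D1:**
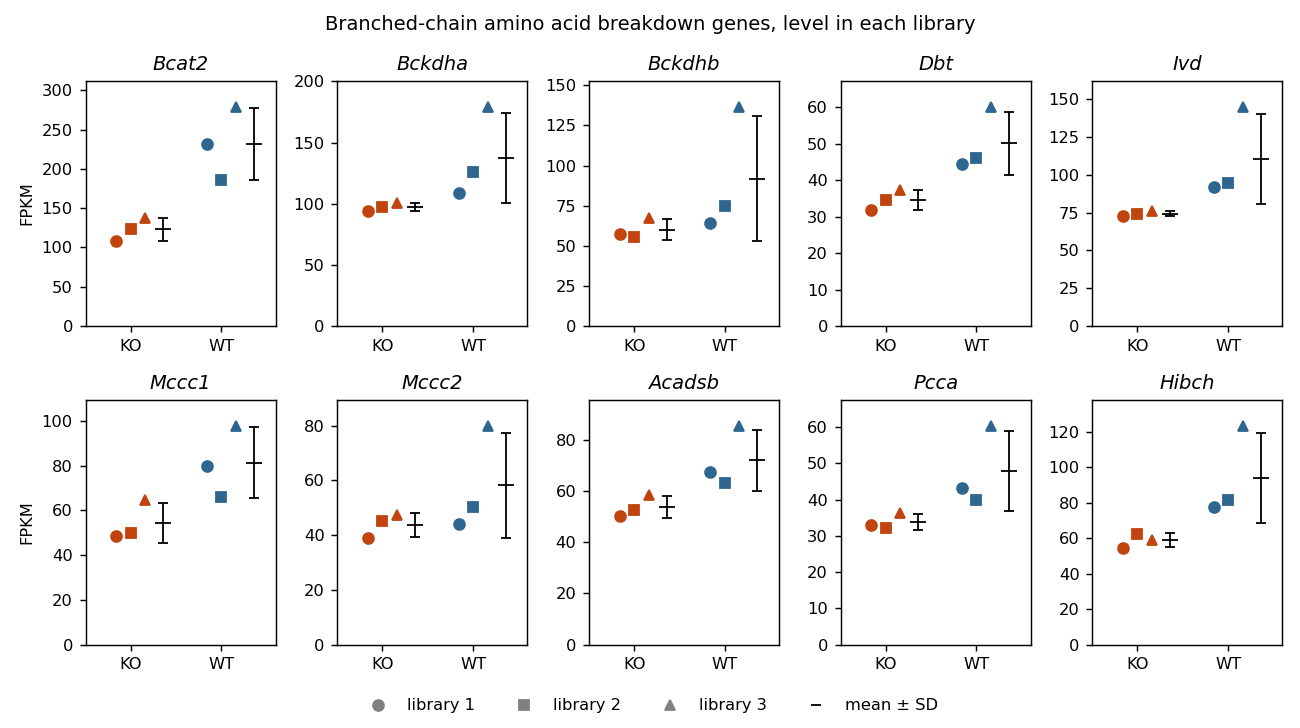
FPKM of the 10 genes in each library, with KO left of WT in each panel, the marker shape giving the library number and the bar the mean ± SD (n = 3 each). WT 3 is the highest point in every panel, and the groups overlap in Bckdhb and Mccc2 only.

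Bcat2 (ENSMUSG00000030826, chromosome 7, 45568967 to 45589710 in RefSeq GRCm38.p6, as for the positions below), the mitochondrial transaminase of the first step, was the most abundant of the 10 genes in each of the 6 libraries and had the largest difference. It had 108, 124 and 137 FPKM in KO 1 to KO 3, against 231, 186 and 279 FPKM in WT 1 to WT 3. The highest library labelled KO lay well below the lowest WT library. The means were 123 ± 14.7 FPKM in the libraries labelled KO and 232 ± 46.3 FPKM in WT (SD, n = 3 each), a ratio of 0.53, and the log2 difference was -0.90 ± 0.18 (SE; limma adjusted p = 0.223). Bcat2 had the lowest log2 difference of the 10 genes under every processing alternative tried, from -1.05 without WT 2 to -0.63 with values scaled to the column sum. It was -0.76 without WT 3 and -0.79 with a covariate for ciliated cells, and -0.64 with quantile normalization. That covariate, here and below, was higher in every library labelled KO than in any WT library, so it is confounded with group.

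Bcat1, the cytosolic transaminase that makes the same exchange, was low in these libraries and had higher mean values in those labelled KO. It had 7.32, 6.14 and 2.17 FPKM in KO 1 to KO 3, against 2.51, 2.2 and 1.59 FPKM in WT 1 to WT 3, so that KO 3 lay among the WT libraries. Its log2 difference was 0.90 ± 0.36 (SE; limma adjusted p = 0.348). With the ciliated-cell covariate it was -0.04, and KO 1 and KO 2, the libraries highest in Bcat1, were also the highest in the summed multiciliated genes. Whether Bcat1 RNA came from epithelium was not tested.

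BCKDH was measured through the subunits of its decarboxylase, Bckdha and Bckdhb, and its transacylase core, Dbt. Bckdha (ENSMUSG00000060376, chromosome 7, 25629852 to 25658782) was the second most abundant of the 10 genes in every library, with 93.9, 97.5 and 101 FPKM in KO 1 to KO 3, against 108, 126 and 179 FPKM in WT 1 to WT 3. The libraries labelled KO lay close together and just below WT 1. Its log2 difference was -0.46 ± 0.19 (SE; limma adjusted p = 0.365), -0.26 without WT 3 and 0.00 with the ciliated-cell covariate. Bckdhb (ENSMUSG00000032263, chromosome 9, 83925111 to 84124240) had 57.2, 55.3 and 67.4 FPKM in KO 1 to KO 3, against 64.5, 75.0 and 136 FPKM in WT 1 to WT 3. Here KO 3 exceeded WT 1, and WT 3 stood far above the rest. The log2 difference was -0.54 ± 0.28 (SE; limma adjusted p = 0.448), -0.22 without WT 3 and 0.19 with the ciliated-cell covariate.

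Dbt (ENSMUSG00000000340, chromosome 3, 116513070 to 116549981), which passes the acyl group to coenzyme A, had 31.9, 34.7 and 37.25 FPKM in KO 1 to KO 3, against 44.3, 46.0 and 60.0 FPKM in WT 1 to WT 3. The groups did not overlap. Its log2 difference was -0.51 ± 0.15 (SE; limma adjusted p = 0.223), and -0.38 without WT 3. The proportions of the 3 transcripts were compared within each library. Bckdhb stood at 0.609, 0.567 and 0.668 of Bckdha in KO 1, KO 2 and KO 3, against 0.595, 0.597 and 0.763 in WT 1, WT 2 and WT 3. The difference of the log2 ratio was -0.08 (exact two-sided permutation p = 0.7), and 0.04 without WT 3. Dbt stood at 0.34, 0.356 and 0.37 of Bckdha in the libraries labelled KO, against 0.409, 0.366 and 0.336 in WT, a difference of the log2 ratio of -0.06 (exact two-sided permutation p = 0.7), and of 0.02 without WT 1 and -0.13 without WT 3. With 3 libraries against 3 these tests cannot fall below 0.1.

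Another part of the complex and its switches also had lower mean values. Dld, the dihydrolipoamide dehydrogenase that BCKDH shares with other complexes, had -0.43 (limma adjusted p = 0.4) on the log2 scale, and -0.21 without WT 3. Bckdk, the kinase that inactivates the decarboxylase, had 38.2, 39.6 and 39.8 FPKM in KO 1 to KO 3, against 40.0, 41.9 and 51.9 FPKM in WT 1 to WT 3. Its libraries labelled KO lay just under WT 1, and its log2 difference was -0.17 (limma adjusted p = 0.571), -0.06 without WT 3 and 0.09 with column-sum scaling. Ppm1k, the phosphatase that reactivates the complex, had 5.02, 4.20 and 4.59 FPKM in KO 1 to KO 3, against 5.41, 5.63 and 5.74 FPKM in WT (log2 difference -0.24, limma adjusted p = 0.404). Slc25a44, the mitochondrial carrier for branched-chain amino acids, had -0.22 (limma adjusted p = 0.44), and 0.04 with column-sum scaling.

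The leucine branch was measured at its first steps after BCKDH. Ivd (ENSMUSG00000027332, chromosome 2, 118861959 to 118882909), the isovaleryl-CoA dehydrogenase, came next after Bckdha in all 6 libraries. It had 72.7, 74.1 and 76.0 FPKM in KO 1 to KO 3, against 91.8, 94.7 and 145 FPKM in WT 1 to WT 3. The libraries labelled KO differed from one another by little (74.3 ± 1.65 FPKM, SD, n = 3, against 110 ± 29.8 FPKM in WT), and the groups did not overlap. The log2 difference was -0.53 ± 0.19 (SE; limma adjusted p = 0.292), and -0.32 without WT 3.

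Mccc1 and Mccc2 encode the biotin-bearing and the carboxyltransferase subunit of methylcrotonyl-CoA carboxylase, the next enzyme of the branch. Mccc1 (ENSMUSG00000027709, chromosome 3, 35956292 to 36000694) had 48.5, 49.7 and 64.5 FPKM in KO 1 to KO 3, against 79.9, 66.0 and 97.8 FPKM in WT 1 to WT 3. KO 3 came close to WT 2. The log2 difference was -0.57 ± 0.18 (SE; limma adjusted p = 0.252), and -0.43 without WT 3. Mccc2 (ENSMUSG00000021646, chromosome 13, 99948532 to 100015639) had 38.8, 45.1 and 47.3 FPKM in KO 1 to KO 3, against 44.2, 50.4 and 80.0 FPKM in WT 1 to WT 3, so that KO 2 and KO 3 exceeded WT 1. Its log2 difference of -0.36 ± 0.22 (SE; limma adjusted p = 0.515) was the smallest of the 10. It was -0.11 without WT 3 and 0.20 with the ciliated-cell covariate. The hydratase Auh, which acts next, had -0.36 (limma adjusted p = 0.454), and -0.15 without WT 3.

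For isoleucine, Acadsb (ENSMUSG00000030861, chromosome 7, 131410601 to 131446211) encodes the short and branched chain acyl-CoA dehydrogenase. It had 50.3, 52.7 and 58.5 FPKM in KO 1 to KO 3, against 67.3, 63.1 and 85.5 FPKM in WT 1 to WT 3, with no overlap. The log2 difference was -0.40 ± 0.15 (SE; limma adjusted p = 0.305), and -0.27 without WT 3. The next isoleucine enzymes had log2 differences of -0.48 for the hydratase Echs1, -0.56 for the dehydrogenase Hsd17b10 and -0.46 for the thiolase Acat1. Without WT 3 these were -0.19, -0.32 and -0.16 in the same order (limma adjusted p = 0.459, 0.33 and 0.472 with all libraries).

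For valine, Hibch (ENSMUSG00000041426, chromosome 1, 52845038 to 52920986), the hydrolase that frees hydroxyisobutyrate from coenzyme A, had the largest difference after Bcat2. It had 54.6, 62.5 and 59.2 FPKM in KO 1 to KO 3, against 77.5, 81.6 and 123 FPKM in WT 1 to WT 3. All libraries labelled KO lay below all WT libraries. The means were 58.8 ± 3.98 FPKM in the libraries labelled KO and 94.1 ± 25.4 FPKM in WT (SD, n = 3 each), and the log2 difference was -0.64 ± 0.19 (SE; limma adjusted p = 0.227), and -0.43 without WT 3. Hibadh, the dehydrogenase that follows, had 124, 136 and 134 FPKM in KO 1 to KO 3, against 174, 159 and 232 FPKM in WT 1 to WT 3 (log2 difference -0.50, limma adjusted p = 0.259). Aldh6a1, the semialdehyde dehydrogenase at the end of the branch, was the most abundant gene of the wider pathway, with 210.1, 234 and 241 FPKM in KO 1 to KO 3, against 276, 291 and 337 FPKM in WT (log2 difference -0.39, limma adjusted p = 0.294). In Hibadh and Aldh6a1, too, the groups did not overlap. Acad8, the isobutyryl-CoA dehydrogenase, had -0.40 with overlapping groups, and -0.19 without WT 3.

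Propionyl-CoA from valine and isoleucine is carried on by propionyl-CoA carboxylase, whose biotin-bearing subunit is Pcca (ENSMUSG00000041650, chromosome 14, 122484365 to 122889944). Pcca had 33.0, 32.3 and 36.4 FPKM in KO 1 to KO 3, against 43.2, 39.8 and 60.4 FPKM in WT 1 to WT 3, with no overlap. The log2 difference was -0.46 ± 0.17 (SE; limma adjusted p = 0.306), and -0.29 without WT 3. Its partner Pccb had -0.32 and the mutase Mut -0.44, and in both every library labelled KO lay below every WT library. Without WT 3 they had -0.20 for Pccb and -0.26 for Mut. The epimerase Mcee and the cobalamin gene Mmaa had -0.27 and -0.23, with 0.06 and -0.01 without WT 3 (limma adjusted p = 0.391 for Pccb, 0.322 for Mut, 0.675 for Mcee and 0.644 for Mmaa). Mmab, the other cobalamin gene, had -0.26.

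Within a group, several neighbours in the order of abundance did not differ beyond their spread. In the libraries labelled KO the means after Bcat2, Bckdha and Ivd were 59.9 ± 6.51 FPKM for Bckdhb, 58.8 ± 3.98 for Hibch, 54.2 ± 8.93 for Mccc1 and 53.9 ± 4.24 for Acadsb (SD, n = 3), a run whose ranges overlap. Mccc2 followed with 43.8 ± 4.42 FPKM. Dbt and Pcca came last, with 34.6 ± 2.68 and 33.9 ± 2.22 FPKM. In WT the last places were again those of Dbt (50.1 ± 8.61 FPKM) and Pcca (47.8 ± 11), and Mccc2 had 58.2 ± 19.1 FPKM. All 10 genes lay between the 84.8th (Pcca) and the 97th (Bcat2) percentile of mean FPKM among the tested genes.

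Of the 23 other genes of the pathway, 20 had lower and 3 had higher values in the libraries labelled KO, with a median log2 difference of -0.32 against -0.05 over all genes. Limma's adjusted threshold was passed by 0 of 23. Without WT 3 the median was -0.19, with the ciliated-cell covariate -0.04 and with column-sum scaling -0.06, where all genes had 0.18. At an unadjusted limma p under 0.05, 4 were lower (Hibadh, Aldh6a1, Mut and Hsd17b10) and 3 were higher (Bcat1, Abat and Slc7a5), against 4.43% and 9.13% of all genes in those directions. In 13 of the 23 every library labelled KO lay below every WT library, against 12.2% of all genes, and in Abat and Slc7a5 every library labelled KO lay above, against 10.1%.

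**Figure D2:**
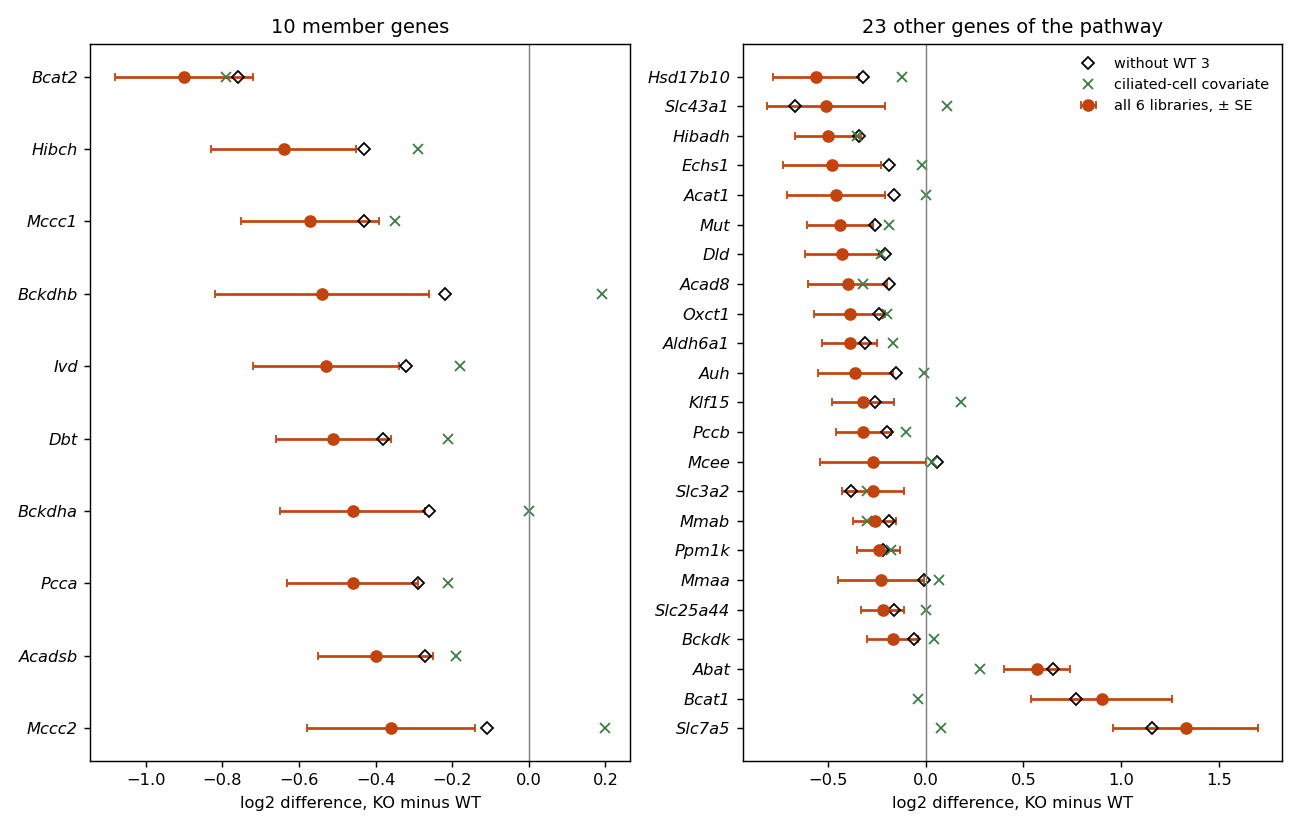
Log2 difference of each gene, KO minus WT on log2(FPKM + 1), for the 10 genes (left) and the 23 other genes of the pathway (right). Filled points with bars are estimates ± SE from all 6 libraries, open diamonds leave out WT 3 and crosses add the ciliated-cell covariate. Bcat2 stays furthest below 0 at all 3 marks, from -0.90 to -0.76. With the covariate Mccc2 and Bckdhb cross 0 on the left. On the right Bcat1, Bckdk, Mcee, Mmaa, Slc43a1 and Klf15 cross 0 with it.

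The 3 genes with higher mean values in the libraries labelled KO were a transporter, a cytosolic transaminase and a mitochondrial transaminase of another substrate. Slc7a5, the light chain of the plasma membrane exchanger for large neutral amino acids, had 9.63, 7.99 and 3.29 FPKM in KO 1 to KO 3, against 3.07, 1.72 and 1.34 FPKM in WT 1 to WT 3 (log2 difference 1.33, limma adjusted p = 0.223). KO 3 was only just above WT 1. Abat, the GABA transaminase, had 17.7, 15.4 and 11.9 FPKM in KO 1 to KO 3, against 9.99, 8.27 and 10.7 FPKM in WT 1 to WT 3 (log2 difference 0.57, limma adjusted p = 0.224). With the ciliated-cell covariate the values were 0.08 for Slc7a5 and 0.28 for Abat. KO 1 and KO 2 were highest in both genes and in the summed multiciliated genes (245 and 250.6 FPKM), and the part of epithelial RNA in these differences was not tested.

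The other uptake genes, Slc3a2 and Slc43a1, had lower mean values, as had Klf15 and Oxct1. Slc3a2, the heavy chain that pairs with Slc7a5, had -0.27 with overlapping groups, and -0.14 without WT 2. Slc43a1, another carrier of large neutral amino acids, had 14.3, 18.8 and 28.8 FPKM in KO 1 to KO 3, against 25.3, 40.6 and 22.8 FPKM in WT 1 to WT 3, with overlap (log2 difference -0.51, limma adjusted p = 0.499), and its difference was -0.29 without KO 1 and -0.26 without WT 2. Klf15, a transcription factor known to drive amino acid breakdown, had 41.2, 39.8 and 42.9 FPKM in KO 1 to KO 3, against 40.6, 60.2 and 56.4 FPKM in WT 1 to WT 3, so that WT 1 lay among the libraries labelled KO (log2 difference -0.32, limma adjusted p = 0.446). With the ciliated-cell covariate Slc43a1 had 0.11 and Klf15 had 0.18. Oxct1, which spends the ketone bodies that leucine yields, had -0.39 (limma adjusted p = 0.389), and -0.24 without WT 3.

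Genes of fat cells and of respiration also had lower values. Of 26 mature adipocyte genes 24 were lower in the libraries labelled KO, with a median log2 difference of -0.39, and 24 of 24 respiratory chain genes were lower, with a median of -0.42. Without WT 3 these medians were -0.28 for the adipocyte and -0.13 for the respiratory chain genes, with the ciliated-cell covariate -0.18 and -0.08, and with quantile normalization -0.01 and -0.16. Summed adipocyte levels were 46070 to 55150 FPKM in KO 1 to KO 3, against 62210 to 105900 FPKM in WT, led by Cfd and Car3. None of the 26 adipocyte genes was listed at 0 in any library. The median of the 10 genes minus that of the adipocyte genes, each centred on the gene's mean, was -0.20, 0.01 and -0.01 in KO 1, KO 2 and KO 3, against 0.00, 0.03 and 0.16 in WT 1, WT 2 and WT 3. The difference of the group means was -0.13 (exact two-sided permutation p = 0.2, smallest possible 0.1), against an SD of 0.11 in KO and 0.09 in WT, and KO 2 lay above WT 1. It was -0.31 with quantile normalization, -0.07 without WT 3, -0.08 without KO 1 and -0.02 with the ciliated-cell covariate. Against the respiratory chain genes the same measure was -0.07, -0.04 and 0.01 in KO 1 to KO 3, against 0.06, 0.19 and -0.05 in WT 1 to WT 3.

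**Figure D3:**
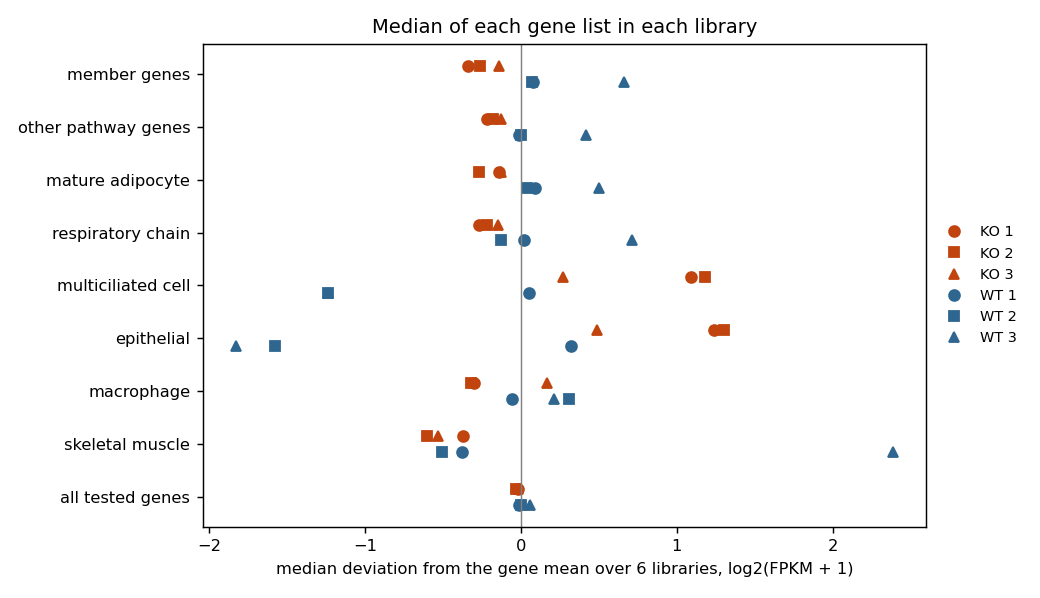
Median deviation of each gene list from its genes' means in each library, in log2(FPKM + 1), with KO above WT in each row. The 10 genes lie at -0.34, -0.26 and -0.14 in KO 1, KO 2 and KO 3, against 0.08, 0.07 and 0.66 in WT 1, WT 2 and WT 3, and the multiciliated, epithelial and skeletal muscle lists separate single WT libraries.

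Markers of other cell types differed between the groups or in single libraries. Of 19 epithelial genes, 16 passed the filter and all 16 were higher in the libraries labelled KO, with summed levels of 143.6 to 288.2 FPKM in KO 1 to KO 3, against 120.9, 19 and 10.32 FPKM in WT 1 to WT 3. Cldn4, Cldn7, Elf3, Grhl2 and Rab25 were listed at 0 in at least 1 library. The ciliated-cell covariate, the mean level of the ciliated genes on the log2 scale, did not overlap between the groups. It was 2.74, 2.8 and 2.01 in KO 1 to KO 3, against 1.8, 0.526 and 0.492 in WT, and is thus confounded with group. With it 7 of the 10 genes were lower and the median was -0.20, against 0.00 over all genes. Macrophage genes summed to 1080 to 1501 FPKM in KO 1 to KO 3, against 1231 to 1701 FPKM in WT, and 13 of 15 were lower (median -0.36). That median was -0.18 without KO 1, -0.15 without KO 2, -0.17 without WT 2 and 0.24 with the ciliated-cell covariate. The endothelial, adipose progenitor and mesothelial lists had medians of 0.17, -0.07 and -0.22, and the skeletal muscle list had -0.96. Without WT 3 the medians were -0.25 for the endothelial, -0.17 for the progenitor, -0.35 for the mesothelial and -0.09 for the skeletal muscle list. With the ciliated-cell covariate they were -0.37, 0.03, 0.18 and 0.20 in that order. The mesothelial median was also 0.05 without KO 2 and 0.01 without WT 2, and the progenitor median was 0.02 without WT 2. The part of epithelium, macrophages and muscle in the differences of the 10 genes was not tested.

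Likeness to the mean profile of the 10 over the 6 libraries was ranked among genes averaging 5 FPKM or more. The 10, the other pathway genes, predicted genes, Riken clones and pseudogenes were left out of that ranking. The genes most like the profile were then Mgst1, Pex13, Acadl, Adig, Apmap and Eif2s1. Their Pearson r with that profile ran from 0.9947 (Eif2s1) to 0.9982 (Mgst1), over 6 libraries, among which WT 3 stands apart. Adig, a small adipocyte protein, had 183, 195 and 252 FPKM in KO 1 to KO 3, against 338, 344 and 668 FPKM in WT 1 to WT 3. Acadl, the long chain acyl-CoA dehydrogenase of fatty acid oxidation, had 94.7, 95.6 and 109 FPKM in KO 1 to KO 3, against 122, 122 and 172 FPKM in WT 1 to WT 3. In both, WT 1 and WT 2 lay close together between the libraries labelled KO and WT 3. Pex13 is a peroxisomal import protein, Mgst1 a microsomal glutathione transferase and Eif2s1 a translation initiation factor.

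**Figure D4:**
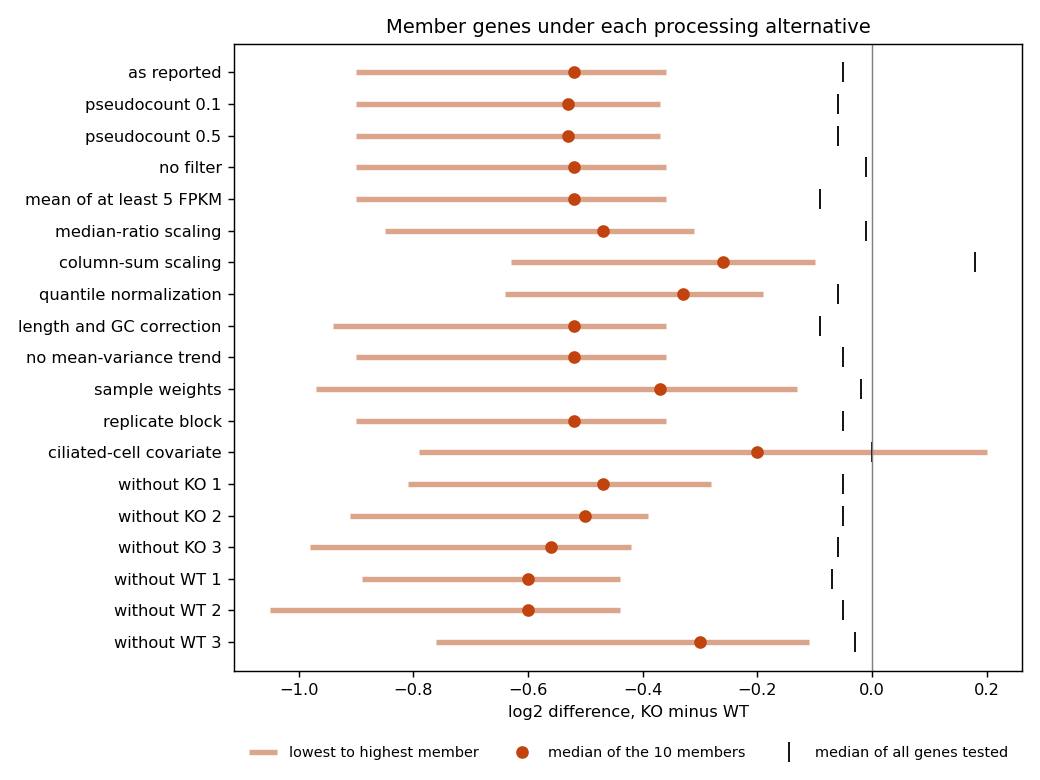
Log2 difference of the 10 genes, KO minus WT, under each processing alternative. Points are the median of the 10, bars run from the lowest to the highest gene, and ticks mark the median of all genes tested. The median of the 10 runs from -0.60 without WT 1 or WT 2 to -0.20 with the ciliated-cell covariate, where the bar reaches 0.20.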

How the data were processed

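The authors deposited 1 table with a column of values per library, read here as FPKM; no header names the unit, which was inferred from the tools and from values that are not whole and sum to different totals. STAR 2.5.4, Cufflinks and Cuffdiff 2.2.1 with build mm10 were used, per the submitters' processing notes; annotation, filters and library scaling were not given in the sources used here. Libraries were made with a stranded mRNA kit, per the labels' protocols. Among 21853 rows, 24 duplicates of a symbol with a lower mean were dropped. Genes averaging 1 FPKM or more across all libraries were tested as log2(FPKM + 1), which understates the change of low genes, with limma 3.58.1 in R 4.3.3 (group only, mean-variance trend, two-sided, Benjamini-Hochberg over 12539 genes, threshold 0.05). Python 3.11.15 made the summaries.

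The total number of fragments is unknown and no counting interval can be given. Steps between low values (0.03 to 0.12 FPKM) put the depth of WT 2 and of the libraries labelled KO at 0.651 to 0.946 of WT 1, from 15.1% to 21.8% of those genes; in WT 3 the step held 11.9% and was not used. Transcript length and GC content came from GENCODE vM21, the longest transcript of each gene, and gene positions and promoters from RefSeq.

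The 10 genes, the 23 other pathway genes, the marker lists and the alternatives were chosen with earlier results of these data known. A gene of the pathway list and one of the epithelial list are not reported here and were left out of those lists. The genes named were those lists' members, Zfp251, the top 2 genes of marker lists and the 6 genes most like the 10. Same-numbered libraries were not paired: their deviations correlated at 0.228, -0.2 and 0.22. The fit was also run on simulated data with independent genes and no library standing apart. That run cannot show how the fit performs on these libraries. Scaling to the column sum was added after the data were seen.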

Additional observations from a re-analysis of the deposited data

How the results depend on the processing

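All 10 genes were lower in the libraries labelled KO in every setting tried except the ciliated-cell covariate, where Bckdha (0.00), Bckdhb (0.19) and Mccc2 (0.20) were not and the median was -0.20. The median was -0.26 with column-sum scaling, an alternative chosen after the data were seen, which moved the median of all genes to 0.18. Relative to all genes it was -0.44, against -0.47 as reported. With quantile normalization the median was -0.33. Relative to all genes that was -0.27, and the same measure was -0.27 without WT 3 and -0.19 with the ciliated-cell covariate. With a library left out the median of the 10 ran from -0.60 to -0.30. Limma called 0 of the 10 in every setting but sample weights. There 7 passed (Bcat2, Dbt, Ivd, Mccc1, Acadsb, Pcca and Hibch), all lower, against 3.66% of all genes called lower. Of the 23 other pathway genes 4 passed in that fit, Hibadh (-0.43) and Oxct1 (-0.39) lower and Abat (0.66) and Slc7a5 (1.22) higher. In all, 970 of 12539 genes passed there. With a library left out the count of all genes ran from 0 to 482, with 482 without WT 1. The replicate block gave a median of -0.52, 0 calls and a smallest adjusted p of 0.0885 among the 10, and changed no call. The KO minus WT difference of the Bckdhb over Bckdha log2 ratio was -0.08 as reported. It was 0.19 with the ciliated-cell covariate, 0.05 after the length and GC correction, 0.01 with sample weights and -0.14 to 0.04 with a library left out. The same difference for the Dbt over Bckdha log2 ratio was -0.06 as reported and 0.10 after the length and GC correction. It was -0.21 with the ciliated-cell covariate, -0.20 with sample weights, -0.17 with quantile normalization and -0.13 to 0.02 with a library left out. Zfp251 passed with sample weights (0.64, limma adjusted p = 0.0367) and without WT 1 (0.78, limma adjusted p = 0.0409), within 0.65 to 0.78 with a library left out and a range of adjusted p from 0.0367 to 1; the filter at 5 FPKM removes it. The ciliated-cell covariate is confounded with group. With it the sign also turned in Bcat1 (-0.04), Bckdk (0.04), Mcee (0.03), Mmaa (0.07), Slc43a1 (0.11) and Klf15 (0.18). It turned with column-sum scaling in Bckdk (0.09) and Slc25a44 (0.04). With sample weights it turned in Mcee (0.02) and Mmaa (0.06), and without WT 3 in Mcee (0.06, within -0.46 to 0.06 with a library left out). The cause was not tested. At an unadjusted p under 0.05 the count of all genes, 1700 as reported, was 169 with the ciliated-cell covariate, 974 with the filter at 5 FPKM, 3914 with sample weights and 866 without KO 1.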

Other observations

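These ratios were chosen after their values were seen and were not tested. The kinase Bckdk stood at 0.407, 0.406 and 0.395 of its substrate gene Bckdha in KO 1, KO 2 and KO 3, against 0.369, 0.334 and 0.29 in WT 1, WT 2 and WT 3. The groups did not overlap, and the difference of the log2 ratio was 0.29, or 0.20 without WT 3. With the ciliated-cell covariate the log2 differences of the 2 genes were 0.04 for Bckdk and 0.00 for Bckdha. The kinase stood at 7.62, 9.42 and 8.67 times its opposing phosphatase Ppm1k in the libraries labelled KO, against 7.39, 7.43 and 9.05 times in WT, with overlap. Bcat1 stood at 0.068, 0.0495 and 0.0158 of Bcat2 in KO 1, KO 2 and KO 3. In WT 1, WT 2 and WT 3 it stood at 0.0109, 0.0118 and 0.0057, with no overlap. Bcat1 itself was low and its groups overlapped. With the ciliated-cell covariate the log2 differences were -0.04 for Bcat1 and -0.79 for Bcat2.

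The paired subunits of the biotin carboxylases kept their order in every library. Pcca stood at 0.413, 0.43 and 0.426 of Pccb in KO 1, KO 2 and KO 3, against 0.461, 0.442 and 0.501 in WT 1, WT 2 and WT 3, a difference of the log2 ratio of -0.15, or -0.10 without WT 3. Mccc1 stood at 1.25, 1.1 and 1.36 times Mccc2 in the libraries labelled KO, against 1.81, 1.31 and 1.22 times in WT, with overlap. The highest of these ratios was that of WT 1, the WT library with the most epithelial RNA (120.9 FPKM summed). KO 1, KO 2 and KO 3 held more epithelial RNA (270.7, 288.2 and 143.6 FPKM) and had lower ratios than WT 1. The part of epithelial RNA in this ratio was not tested.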
